A study of Mus musculus with 4 samples.

Results

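The genes of cholesterol synthesis, uptake and efflux were followed here as 32 named genes, out of 17532 listed in either of the deposited gene tables. They were chosen by name and fall into 3 roles: 18 enzymes of synthesis (7 of the mevalonate stage, up to farnesyl diphosphate, and 11 from squalene onwards), 6 regulators, and 8 genes of efflux, intracellular transport and storage. All 32 were listed in every library, and all 32 passed the minimum of 1 CPM in the higher library of each comparison. CPM stands for scaled counts per 1000000, with 1 scale shared by all libraries.

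RNA was sequenced from macrophages of the periosteum, the membrane that covers bone, which had been sorted by flow cytometry from wild-type male C57BL/6 mice at postnatal day 28 as CD45+ cells positive for CX3CR1 and for 1 further surface protein. The groups were CX3CR1+CD74+ cells given recombinant periostin (rmPostn) at 500 ng/ml, CX3CR1+CD74+ cells given PBS vehicle, CX3CR1+ACE+ cells given the same periostin dose, and CX3CR1+ACE+ cells given PBS vehicle. All of them were kept in DMEM with 10% FBS and 1% penicillin/streptomycin, with M-CSF, the growth factor macrophages depend on, at 10 ng/ml, and were collected 24 h after treatment began. Periostin itself is a matrix protein, secreted by periosteal and other stromal cells, that signals through integrins. Each group held 1 library, and the labels do not say how many mice were pooled. The question put to the data was whether periostin, or the subset, went with a shift in synthesis enzymes as against efflux and transport genes.

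Cells build cholesterol from acetyl-CoA through mevalonate to farnesyl diphosphate, join that into squalene, and turn squalene through lanosterol into cholesterol. The SREBP transcription factors, held in the endoplasmic reticulum while sterol is plentiful, switch these enzymes on when sterol runs low. The liver X receptors (LXR) sense oxysterols and switch on export through ABCA1 and ABCG1 to apolipoproteins. Macrophages take up much cholesterol with lipoproteins and dead cells, and are known for storing the excess as esters or exporting it.

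The libraries held 11846312 reads for CD74+ periostin, 16650349 for CD74+ vehicle, 19798150 for ACE+ periostin and 15471245 for ACE+ vehicle, and a single read was worth between 0.0491 and 0.0897 CPM. Macrophage markers were present in every library, with 12 of 12 listed and a summed level between 7241 and 8178 CPM, most of it Lyz2 at 4390, 4386, 6004 and 5718 CPM in CD74+ periostin, CD74+ vehicle, ACE+ periostin and ACE+ vehicle. They were not level between the subsets: between the vehicle libraries 10 of 12 were higher in CD74+ cells, with a median log2 difference of 0.51, and with periostin 8 of 12 were higher, with a median of 0.88. Cd68 had 1327, 1191, 675 and 576 CPM and Cd14 332, 215, 77.3 and 82.0 CPM in that order of libraries. Others went the other way. With periostin, Adgre1, Mertk and Itgam had 19.4, 3.77 and 696 CPM in CD74+ cells, against 39.7, 14.7 and 994 CPM in ACE+ cells. Adgre1 and Lyz2 were lower in CD74+ cells under both treatments. So was the summed level, at 7241 and 7265 CPM with periostin and vehicle, against 8178 and 7690 CPM. Markers of other cells were present too and moved with the groups. B-cell markers summed to 17.2 and 23.2 CPM in CD74+ periostin and CD74+ vehicle, with 5 of 8 listed and Pax5 and Ebf1 left out of that table, against 457 and 545 CPM in ACE+ periostin and ACE+ vehicle, with 7 of 8 listed. Erythroid markers summed to 537 and 303 CPM in CD74+ periostin and CD74+ vehicle, against 1995 and 1689 CPM in the ACE+ libraries in the same treatment order. The corresponding sums for osteoblast and fibroblast markers were 299 and 320 CPM, against 823 and 1028 CPM. Chondrocyte markers summed to 976 and 1356 CPM in CD74+ periostin and CD74+ vehicle, and to 819 and 241 CPM in ACE+ periostin and ACE+ vehicle. Neutrophil markers were the most abundant, at 20330 and 12745 CPM against 28186 and 23365 CPM, with S100a8 alone at 9038 and 5070 CPM against 11740 and 9157 CPM. In such bulk libraries, fewer cells of a type and less RNA per cell cannot be told apart.

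Levels were compared between genes per kb of the gene length in the deposited tables, as CPM per kb. Apoe, which encodes the apolipoprotein that carries cholesterol out of macrophages, stood highest in every library, at 399, 283, 306 and 226 CPM per kb in CD74+ periostin, CD74+ vehicle, ACE+ periostin and ACE+ vehicle. Npc2, which encodes the lysosomal protein that hands free cholesterol to NPC1, had 204, 209, 166 and 157 CPM per kb in the same order. Fdps, the gene for farnesyl diphosphate synthase, had 138, 135, 182 and 177 CPM per kb. On these lengths its range over the libraries overlapped that of Npc2, and their order differed between the subsets. Any order of genes here depends on the length used. The deposited length was 1241 bases for Fdps and 3261 for Npc2, whereas their annotated exons cover 4208 and 5438 bases. Of the other synthesis enzymes, Hmgcs1 (HMG-CoA synthase), Fdft1 (squalene synthase), Cyp51 (lanosterol demethylase), Sc5d (a sterol desaturase) and Msmo1 (a methylsterol oxidase) lay between 30.7 and 74.1 CPM per kb. Lss (lanosterol synthase), Tm7sf2 and Dhcr7 (sterol reductases), which act after squalene, were among the lowest at 2.99 to 11.1 CPM per kb.

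The regulators differed in level from their paralogues. Srebf2, the SREBP gene best known for driving cholesterol synthesis, had 38.1, 48.7, 53.7 and 47.7 CPM per kb in the same order of libraries, and Srebf1, better known for fatty acid synthesis, had 11.1, 13.5, 11.8 and 13.0 CPM per kb. For the LXR genes, Nr1h2 (LXR beta) lay between 43.0 and 49.1 CPM per kb and Nr1h3 (LXR alpha) between 4.94 and 9.74 CPM per kb. Neither pair of ranges overlapped. Abca1, which encodes the exporter that loads lipid-poor apolipoproteins, was the lowest member in every library at 0.796, 1.54, 1.53 and 1.97 CPM per kb, whereas the exporter gene Abcg1 had 23.8, 18.8, 11.4 and 9.77 CPM per kb.

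**Figure D1:**
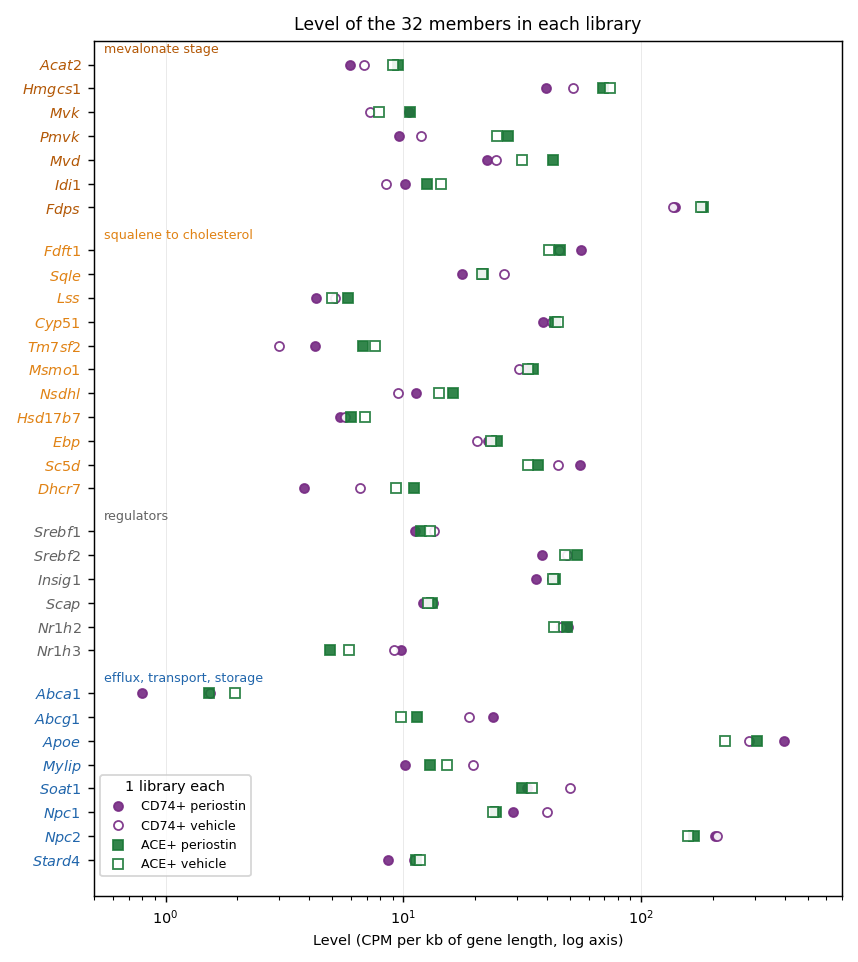
Level of each member in CPM per kb of gene length (log axis) in the 4 libraries, 1 library per group, with members grouped by role. Apoe lies farthest right and Abca1 farthest left in every library, and the purple CD74+ symbols of Pmvk, Hmgcs1 and Dhcr7 lie left of the green ACE+ symbols.

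In CX3CR1+CD74+ cells the lower members with periostin were spread over synthesis and efflux, and no member reached 2-fold. Of 32 members, 0 were at least 2-fold higher and 0 at least 2-fold lower, against 6.69% and 5.25% of the 13865 genes compared. At 1.5-fold, 0 members were higher and 5 were lower, which is 5 of 32 beside 14.1% of all compared genes that were lower by as much and 16.6% that were higher. The 5 were Mylip, Abca1, Soat1, Sqle and Dhcr7. Ratios are given with exact 95% counting intervals, which cover counting error only and not the spread between cultures or animals.

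The 2 members with the lowest ratios both belong to the LXR target genes. Mylip (ENSMUSG00000038175, chr13:45389742-45412022, plus strand), the gene of a ubiquitin ligase that removes lipoprotein receptors from the cell surface, had 31.0 CPM in CD74+ periostin and 60.0 in CD74+ vehicle, against 39.5 in ACE+ periostin and 46.9 in ACE+ vehicle. Its periostin ratio in CD74+ cells was 0.518 (0.457 to 0.585). Abca1 (ENSMUSG00000015243, chr4:53030787-53159895, minus strand) had 8.25 CPM in CD74+ periostin and 16.0 in CD74+ vehicle, against 15.8 in ACE+ periostin and 20.4 in ACE+ vehicle, a ratio of 0.517 (0.403 to 0.658) in CD74+ cells. For both genes the CD74+ periostin library was the lowest of the 4. Abcg1 and Apoe, which are LXR targets as well, stood on the other side of 1. Abcg1 had 97.0 CPM in CD74+ periostin and 76.6 in CD74+ vehicle, and Apoe had 790 and 560 CPM, ratios of 1.27 (1.17 to 1.37) and 1.41 (1.37 to 1.45). For Apoe (ENSMUSG00000002985, chr7:19696109-19699188, minus strand), CD74+ periostin was the highest library.

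Soat1 (ENSMUSG00000026600, chr1:156424525-156474331, minus strand), which encodes the enzyme that esterifies cholesterol for storage, had 323 CPM in CD74+ periostin and 488 in CD74+ vehicle, against 308 in ACE+ periostin and 340 in ACE+ vehicle. CD74+ vehicle thus stood above the other 3 libraries. Its CD74+ ratio was 0.662 (0.636 to 0.688). Npc1, the gene for the membrane protein that releases cholesterol from lysosomes, was placed alike, with 310 CPM in CD74+ periostin and 429 in CD74+ vehicle against 263 in ACE+ periostin and 255 in ACE+ vehicle. Of the other 2 efflux and transport genes, Npc2 had a CD74+ ratio of 0.975 (0.947 to 1.00), and Stard4, a cytosolic sterol carrier gene, one of 0.776 (0.698 to 0.863). Altogether 2 of the 8 genes were higher and 6 lower, with a median log2 change of -0.41. Over all compared genes 51.4% were higher and 48.6% lower by any amount, with a median of 0.02.

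The 18 synthesis enzymes were split evenly in CD74+ cells, with 9 higher, 9 lower and a median log2 change of -0.02, which lay between -0.11 and 0.04 under the other scalings and trend removals. Dhcr7 (ENSMUSG00000058454, chr7:143823145-143848410, plus strand), the gene of the reductase that completes cholesterol, had 14.4 CPM in CD74+ periostin and 24.9 in CD74+ vehicle, against 42.0 in ACE+ periostin and 35.4 in ACE+ vehicle, a CD74+ ratio of 0.581 (0.481 to 0.698). Sqle (ENSMUSG00000022351, chr15:59315077-59331192, plus strand), which encodes the squalene epoxidase that starts the sterol branch, had 97.8 CPM in CD74+ periostin and 147 in CD74+ vehicle, against 120 in ACE+ periostin and 118 in ACE+ vehicle, a CD74+ ratio of 0.664 (0.617 to 0.713). Hmgcs1 was the lowest of the mevalonate stage at 128 CPM in CD74+ periostin and 167 in CD74+ vehicle, a ratio of 0.768 (0.721 to 0.819). In each of these 3 genes CD74+ periostin was the lowest library.

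Other enzymes stood on the opposite side in the same cells. Mvk (ENSMUSG00000041939, chr5:114444269-114460591, plus strand), the mevalonate kinase gene, had 28.2 CPM in CD74+ periostin and 19.4 in CD74+ vehicle, a ratio of 1.45 (1.24 to 1.70). Tm7sf2 had 14.8 and 10.4 CPM in CD74+ periostin and CD74+ vehicle, a ratio of 1.42 (1.14 to 1.77). Fdft1, Sc5d, Idi1, Nsdhl, Ebp, Msmo1 and Fdps had ratios between 1.02 and 1.24, and Pmvk, Lss, Acat2 (the thiolase at the head of the pathway), Mvd, Cyp51 and Hsd17b7 between 0.805 and 0.951. Successive steps therefore did not share a direction, as with Mvk above 1 and Pmvk, the kinase gene of the following step, below 1. Summed over the 18 enzymes, the level was 1372 CPM in CD74+ periostin and 1407 CPM in CD74+ vehicle.

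Among the regulators, 4 of 6 were lower in CD74+ cells with periostin and the median log2 change was -0.17. Srebf2 was the lowest, with 190 CPM in CD74+ periostin and 243 in CD74+ vehicle, a ratio of 0.782 (0.742 to 0.825). Srebf1, Insig1, whose product retains SREBPs in the endoplasmic reticulum, and Scap, which escorts them out, had ratios of 0.828, 0.858 and 0.914. Nr1h2, with 165 CPM in CD74+ periostin and 155 in CD74+ vehicle, and Nr1h3, with 24.5 and 22.9 CPM, had ratios of 1.07 (1.01 to 1.14) and 1.07 (0.912 to 1.25).

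**Figure D2:**
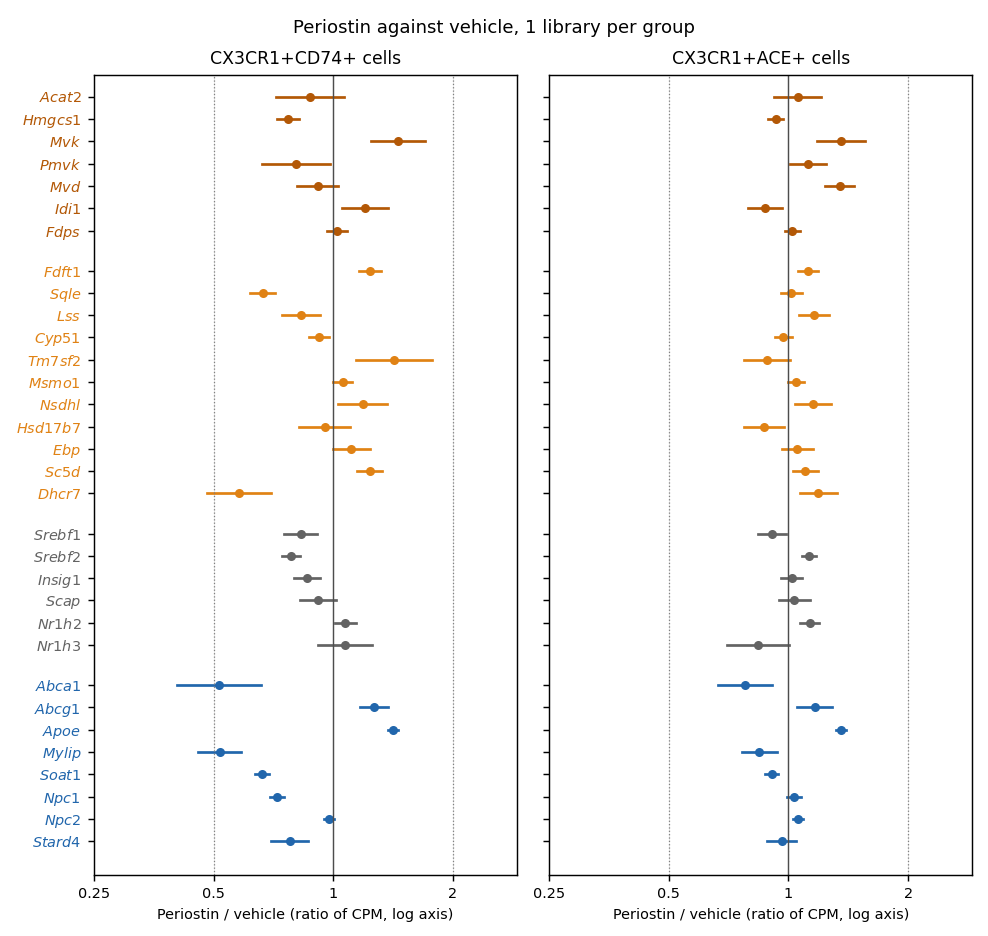
Ratio of CPM with periostin to CPM with vehicle for each member (log axis), in CX3CR1+CD74+ cells on the left and CX3CR1+ACE+ cells on the right, with 1 library per group. Bars are exact 95% counting intervals, the solid line marks a ratio of 1 and the dotted lines 0.5 and 2. Mylip and Abca1 lie nearest to 0.5 in CD74+ cells, and in ACE+ cells the ratios run from 0.777 to 1.36.

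The change in CD74+ cells fell with gene length. Over all 13865 compared genes the Spearman correlation with length was -0.32, and the median log2 change was 0.45 in the decile of shortest genes and -0.28 in the decile of longest genes. Over the 32 members the correlation was -0.45, and these genes share the same pair of libraries. Abca1, Soat1, Npc1 and Lss, with 10363, 9791, 10725 and 10787 bases, are in the longest decile, whereas Mylip and Dhcr7, with 3062 and 3784 bases, are in the middle ones. With the length trend removed, the log2 change was -0.97 for Mylip, -0.73 for Dhcr7, -0.58 for Abca1, -0.45 for Sqle, -0.32 for Soat1 and -0.17 for Npc1, where it had been -0.93, -0.74, -0.87, -0.59, -0.59 and -0.47. The median of the 8 efflux and transport genes was then -0.19, and with each library scaled to its own total reads it was -0.51. With that own-total scaling 1 member, Mylip, was at least 2-fold lower in CD74+ cells. In the same pair, 7 of 10 neutrophil and 7 of 8 erythroid markers stood higher in CD74+ periostin than in CD74+ vehicle. Of 12 macrophage markers 7 were higher and 5 lower, and of 11 compared chondrocyte markers 3 were higher and 8 lower. The part of these markers and of gene length in the members' changes was not tested.

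**Figure D3:**
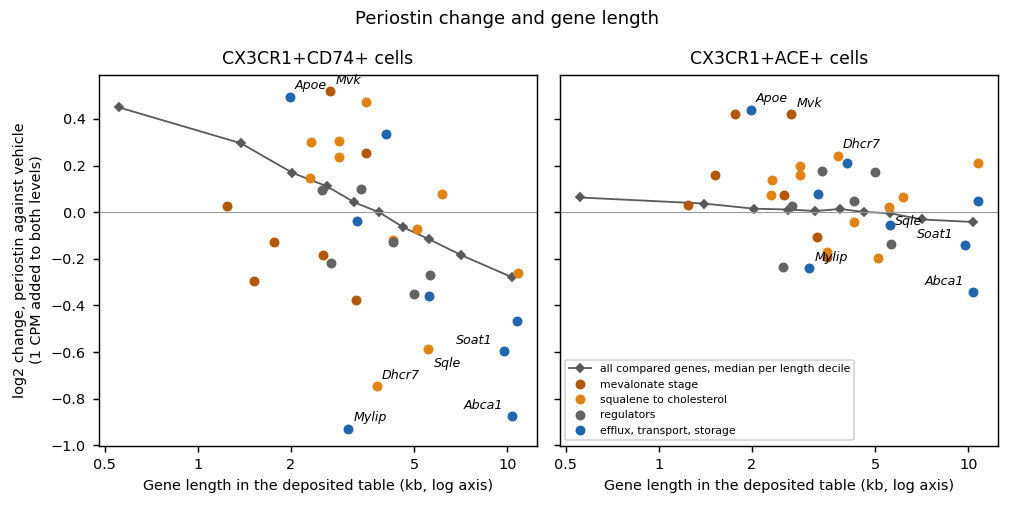
Log2 change with periostin against vehicle (1 CPM added to both levels) by gene length (kb, log axis) for the members, coloured by role, in CX3CR1+CD74+ cells on the left and CX3CR1+ACE+ cells on the right, with 1 library per group. Grey diamonds are medians of all compared genes in length deciles, which run from 0.45 to -0.28 in CD74+ cells. Soat1 and Abca1 lie at the long end, and Mylip and Dhcr7 lie well below the grey line at middle lengths.

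In CX3CR1+ACE+ cells the members moved little with periostin. None of the 32 was at least 2-fold higher or lower, against 1.47% and 1.30% of the 14734 genes compared, and none reached 1.5-fold, beside 6.16% of compared genes higher and 5.82% lower by as much. Synthesis enzymes had 13 of 18 members higher, with a median log2 change of 0.07, where 50.6% of all compared genes were higher and 49.4% lower. Their summed level was 1659 CPM in ACE+ periostin and 1601 CPM in ACE+ vehicle. Mvd, the gene of mevalonate diphosphate decarboxylase, had 74.6 CPM in ACE+ periostin and 55.5 in ACE+ vehicle, a ratio of 1.35 (1.24 to 1.46). For Mvk the levels were 28.6 and 21.1 CPM, a ratio of 1.35 (1.18 to 1.55). Idi1, the isopentenyl diphosphate isomerase gene, was the lowest of that stage at 44.2 CPM in ACE+ periostin and 50.6 in ACE+ vehicle.

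After squalene, Dhcr7 was the highest in ACE+ cells, with a ratio of 1.19 (1.07 to 1.32), and Hsd17b7, which encodes a 3-ketosterol reductase, was the lowest at 30.6 CPM in ACE+ periostin and 35.2 in ACE+ vehicle, a ratio of 0.868 (0.774 to 0.975). Of the regulators, Nr1h2 had 164 CPM in ACE+ periostin and 145 in ACE+ vehicle, and Srebf2 had 268 and 238 CPM, both with a ratio of 1.13. Nr1h3 was the lowest at 12.4 CPM in ACE+ periostin and 14.8 in ACE+ vehicle. Efflux and transport genes had 4 members higher and 4 lower. Apoe again had the highest ratio, at 606 CPM in ACE+ periostin and 447 in ACE+ vehicle, 1.36 (1.32 to 1.40), and Abca1 again the lowest, 0.777 (0.664 to 0.910). In this comparison the change went with GC content, with a Spearman correlation of 0.24 over all compared genes and 0.49 over the 32 members. With the GC trend removed, the log2 changes of Nr1h2, Srebf2, Idi1 and Hsd17b7 were 0.08, 0.08, -0.08 and -0.12, where they had been 0.17, 0.17, -0.19 and -0.20. Chondrocyte markers stood at 819 CPM in ACE+ periostin and 241 CPM in ACE+ vehicle, and their part in these differences was not tested.

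The only test of periostin that 4 libraries allow is of a change shared by CD74+ and ACE+ cells, and it called no member. It used edgeR's quasi-likelihood test with subset as a covariate and left 1 residual degree of freedom. Any difference between the subsets' responses counts as error, pooled over genes into a trend. The prior degrees of freedom in edgeR were infinite, so a gene's own difference did not set its error. The p-values measure only the spread between these libraries. Of 13129 genes, 8 were called higher (0.0609%) and 6 lower (0.0457%) at an adjusted p of 0.05. At an unadjusted p under 0.05 there were 2 members, beside 6.67% of all genes tested. Apoe had a common log2 change of 0.48 (Benjamini-Hochberg adjusted p = 0.612 by edgeR) and was higher with periostin in both subsets. Mylip had -0.58 (adjusted p = 0.629 by edgeR) and was lower in both. DESeq2 likewise called 0 members, with 2 at an unadjusted p under 0.05.

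Between the subsets the contrast of synthesis and efflux genes was larger. In the vehicle libraries, synthesis enzymes stood lower in CX3CR1+CD74+ than in CX3CR1+ACE+ cells, with 14 of 18 lower and a median log2 difference of -0.31. Efflux and transport genes stood higher, with 6 of 8 higher and a median of 0.38. In the same pair of libraries 10 of 12 macrophage markers were higher in CD74+ cells, with a median of 0.51. Their summed level was lower there, at 7265 CPM against 7690 CPM in ACE+ vehicle. The part of macrophage content in the efflux and transport values was not tested. Of all 13393 compared genes 49.9% were higher and 50.1% lower, with a median of -0.00. At 2-fold, 0 members were higher and 2 lower (Pmvk and Tm7sf2), against 3.64% and 7.73% of the compared genes. All 7 genes of the mevalonate stage were lower in CD74+ vehicle, and their summed level was 463 CPM there and 647 CPM in ACE+ vehicle. The 11 enzymes from squalene onwards differed less in sum, at 944 CPM in CD74+ vehicle and 954 CPM in ACE+ vehicle. The 8 efflux and transport genes summed to 2373 CPM in CD74+ vehicle and 1725 CPM in ACE+ vehicle. The CD74+ vehicle library is also the one that the CD74+ periostin changes above are set against.

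With periostin, 16 of 18 synthesis enzymes were lower in CD74+ than in ACE+ cells, with a median log2 difference of -0.35, and 5 of 8 efflux and transport genes were higher, with a median of 0.15, beside 50.2% of compared genes higher and 49.8% lower. This difference fell with gene length over all 13681 compared genes, with a Spearman correlation of -0.23 and decile medians between 0.37 and -0.26, whereas between the vehicle libraries the correlation was -0.02. With the length trend removed, 15 of 18 synthesis enzymes were lower, with a median of -0.25, and 5 of 8 efflux and transport genes higher, with a median of 0.29. At 2-fold, Abcg1 was higher and Pmvk and Dhcr7 were lower, 1 and 2 of 32 members, against 6.94% and 10.4% of compared genes. Across both treatments, 14 synthesis enzymes were lower in CD74+ cells each time and 2, Fdft1 and Sc5d, were higher each time. The other 2 changed side. Both treatments set the same subsets against each other, and the matching share of all compared genes was not computed. The summed mevalonate stage was 432 CPM in CD74+ periostin and 661 CPM in ACE+ periostin.

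The subset difference common to both treatments was tested in the same edgeR fit. That test had treatment as a covariate and again took each gene's error from the trend over all genes. It called 7 of 32 members, 2 higher and 5 lower in CD74+ cells, where 6.23% of the 13129 genes were called higher and 9.15% lower. The 5 lower members were all synthesis enzymes: Pmvk, Dhcr7, Tm7sf2, Hmgcs1 and Mvd. The 2 higher members, Abcg1 and Npc1, export cholesterol or release it from lysosomes. At an unadjusted p under 0.05 there were 12 members, beside 26.4% of all genes tested.

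Pmvk (ENSMUSG00000027952, chr3:89454541-89469013, plus strand), the phosphomevalonate kinase gene, had 14.4 CPM in CD74+ periostin and 17.9 in CD74+ vehicle, against 41.8 in ACE+ periostin and 37.3 in ACE+ vehicle. Its common log2 difference was -1.29 (adjusted p = 0.000116 by edgeR), the lowest of the members. Dhcr7, whose 4 levels are given above, had a common log2 difference of -1.01 (adjusted p = 0.00376 by edgeR). In both genes the CD74+ levels lay wholly below the ACE+ levels.

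Tm7sf2 (ENSMUSG00000024799, chr19:6062821-6068373, minus strand) had 14.8 CPM in CD74+ periostin and 10.4 in CD74+ vehicle, against 23.5 in ACE+ periostin and 26.5 in ACE+ vehicle, a common log2 difference of -1.004 (adjusted p = 0.0219 by edgeR). Hmgcs1 (ENSMUSG00000093930, chr13:119690379-119708260, plus strand) had 128 and 167 CPM in CD74+ periostin and CD74+ vehicle, against 222 and 239 CPM in ACE+ periostin and ACE+ vehicle, a common log2 difference of -0.65 (adjusted p = 0.00549 by edgeR). Mvd (ENSMUSG00000006517, chr8:122433601-122443422, minus strand) had 39.4 CPM in CD74+ periostin and 43.2 in CD74+ vehicle, against 74.6 in ACE+ periostin and 55.5 in ACE+ vehicle, a common log2 difference of -0.64 (adjusted p = 0.0422 by edgeR). In these 3 genes too, both CD74+ levels lay below both ACE+ levels. The called genes were picked on these same levels, so that order adds no support to the calls.

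Abcg1 (ENSMUSG00000024030, chr17:31057675-31117988, plus strand), which encodes an exporter of cholesterol to high-density lipoprotein, had 97.0 CPM in CD74+ periostin and 76.6 in CD74+ vehicle, against 46.2 in ACE+ periostin and 39.7 in ACE+ vehicle. Its common log2 difference was 1.01 (adjusted p = 0.000109 by edgeR). Both CD74+ levels lay above both ACE+ levels, which are the same levels that gave the call. Npc1 had a common log2 difference of 0.50 with an adjusted p of 0.04996 by edgeR, just inside the threshold. The call for Npc1 ended with no filter on low values (adjusted p = 0.0518), with a minimum of 5 CPM (adjusted p = 0.0592) and in DESeq2 (adjusted p = 0.0753). DESeq2 called 4 members, Pmvk, Dhcr7, Hmgcs1 and Abcg1, and gave adjusted p-values of 0.0798 for Tm7sf2 and 0.125 for Mvd.

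Members that missed the threshold in the edgeR fit are given by value. Nr1h3 had 24.5 and 22.9 CPM in CD74+ periostin and CD74+ vehicle, against 12.4 and 14.8 CPM in ACE+ periostin and ACE+ vehicle, a common log2 difference of 0.81 (adjusted p = 0.0813 by edgeR). Sc5d had 128 and 104 CPM in CD74+ periostin and CD74+ vehicle, against 85.5 and 77.5 CPM in ACE+ periostin and ACE+ vehicle, a common log2 difference of 0.51 (adjusted p = 0.0626 by edgeR). Of the remaining members, Idi1, Fdps and Nsdhl had an unadjusted p under 0.05 and common log2 differences of -0.54, -0.39 and -0.54. Srebf2, Srebf1, Insig1, Scap and Nr1h2 had common log2 differences between -0.23 and 0.06. The summed levels of B-cell, erythroid, neutrophil, and osteoblast and fibroblast markers were lower in CD74+ than in ACE+ libraries under both treatments, and those of chondrocyte markers were higher. Gene by gene, 10 of 10 neutrophil markers were lower in CD74+ cells under both treatments, with a median log2 difference of -0.96 between the vehicle libraries, and 11 of 11 compared chondrocyte markers were higher in CD74+ vehicle, 10 of them at least 2-fold. With periostin, 9 of 11 compared chondrocyte markers were higher and 2 lower. Among those lower, Col10a1 had 6.01 CPM in CD74+ periostin and 64.6 CPM in ACE+ periostin. Single B-cell and erythroid markers also went against their lists, such as Klf1 with 4.66 CPM in CD74+ periostin and 2.55 CPM in ACE+ periostin. The part of these cells in the members' subset differences was not tested.

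**Figure D4:**
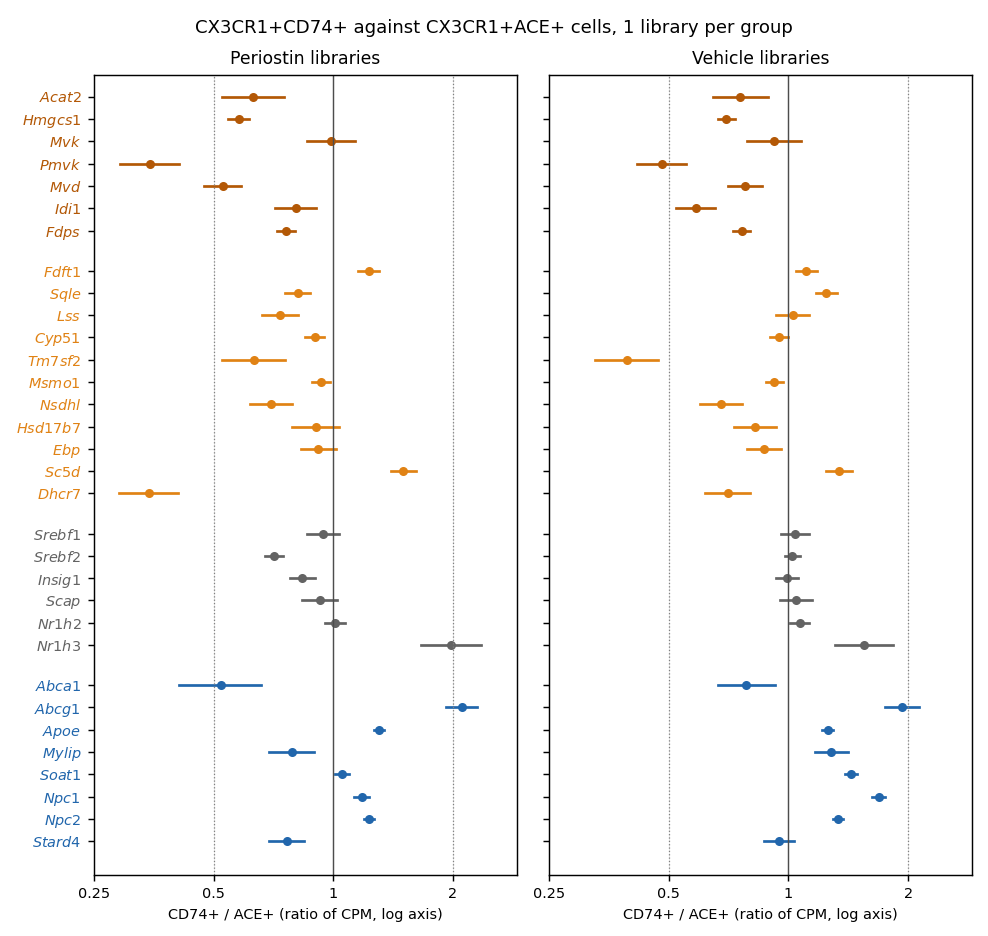
Ratio of CPM in CX3CR1+CD74+ cells to CPM in CX3CR1+ACE+ cells for each member (log axis), with periostin on the left and vehicle on the right, 1 library per group. Bars are exact 95% counting intervals, and the lines mark ratios of 0.5, 1 and 2. All 7 genes of the mevalonate stage lie below 1 in both panels, and Abcg1 lies near 2 in both.

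Reads could be shared with other genes, near copies or overlapping genes, for some members. Of all 50-base stretches in the annotated transcripts, 39.1% of those of Acat2 also occur in other genes (Acat3 and Tcp1), as do 26.5% for Fdft1, 26.2% for Fdps, 25.3% for Idi1, 11.6% for Hmgcs1, 9.96% for Scap and 9.87% for Tm7sf2. These shares were counted on either strand and include genes that overlap the member, such as Ctsb for Fdft1 and Vps51 for Tm7sf2. Levels of these genes are uncertain, and by how much was not tested. For Pmvk and Mvd the share was 0%, for Dhcr7 1.37%, and for Npc1 4.39%. Exons also overlap other annotated genes, over 26.7% of the exon length of Fdps, 18.3% of Fdft1 (with Ctsb), 13.2% of Scap, 12.1% of Tm7sf2 (with Vps51), 12.1% of Hmgcs1 and 9.22% of Idi1, and over at most 5.31% of the other members.

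The promoters of the 5 enzymes called lower in CD74+ cells are shown because sterol-responsive genes are known to be switched on through the sterol regulatory element, bound by SREBP, and a nearby box bound by its partner NF-Y. The choice of these 5, apart from Dhcr7, was made after their values were seen. Each window is from RefSeq (GRCm38.p6), runs from 250 bases before to 50 after an annotated start site, and is written on the gene's strand. Capitals mark CCAAT or its reverse complement ATTGG and, in Hmgcs1, the element core TCACCCCAC.
Hmgcs1 (chr13:119690101-119690400, plus strand): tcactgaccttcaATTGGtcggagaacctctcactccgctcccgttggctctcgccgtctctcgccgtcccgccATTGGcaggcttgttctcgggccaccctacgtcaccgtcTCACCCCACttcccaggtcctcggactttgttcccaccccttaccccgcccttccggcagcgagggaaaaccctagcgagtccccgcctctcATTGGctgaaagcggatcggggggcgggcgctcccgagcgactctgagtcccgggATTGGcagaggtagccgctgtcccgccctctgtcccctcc
Pmvk (first of 2 windows, chr3:89454291-89454590, plus strand): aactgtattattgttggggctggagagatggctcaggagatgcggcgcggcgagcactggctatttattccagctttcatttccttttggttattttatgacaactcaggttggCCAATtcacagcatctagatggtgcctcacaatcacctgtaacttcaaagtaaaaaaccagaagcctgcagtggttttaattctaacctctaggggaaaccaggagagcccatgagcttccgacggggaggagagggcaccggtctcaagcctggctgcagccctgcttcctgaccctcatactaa
Mvd (chr8:122443373-122443672, minus strand): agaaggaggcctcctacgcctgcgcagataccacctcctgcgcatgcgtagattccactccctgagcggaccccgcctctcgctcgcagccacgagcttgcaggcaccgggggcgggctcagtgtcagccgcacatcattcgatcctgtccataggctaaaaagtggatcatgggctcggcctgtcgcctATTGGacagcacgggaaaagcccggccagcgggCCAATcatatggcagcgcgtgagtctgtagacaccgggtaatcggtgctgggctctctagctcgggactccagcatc
Tm7sf2 (chr19:6067801-6068100, minus strand): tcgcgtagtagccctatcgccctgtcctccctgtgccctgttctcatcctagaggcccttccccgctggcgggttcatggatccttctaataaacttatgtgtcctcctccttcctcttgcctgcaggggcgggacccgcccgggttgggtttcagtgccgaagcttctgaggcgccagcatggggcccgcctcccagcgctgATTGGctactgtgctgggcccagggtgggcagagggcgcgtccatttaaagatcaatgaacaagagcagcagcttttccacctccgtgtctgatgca
Dhcr7 (the third of 3 windows, chr7:143829964-143830263, plus strand): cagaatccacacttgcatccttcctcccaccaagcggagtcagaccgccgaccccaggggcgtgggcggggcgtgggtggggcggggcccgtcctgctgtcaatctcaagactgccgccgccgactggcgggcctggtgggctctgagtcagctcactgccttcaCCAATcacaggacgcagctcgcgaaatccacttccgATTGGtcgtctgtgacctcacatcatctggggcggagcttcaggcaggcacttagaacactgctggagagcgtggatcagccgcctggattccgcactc

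In Hmgcs1 the element core starts 137 bases before the start site, between boxes at 176 and 45 bases before it. The boxes of Mvd start 60 and 27 bases upstream, those of Dhcr7 85 and 49, that of Tm7sf2 47 and that of Pmvk 136. The second window of Pmvk and the other 2 windows of Dhcr7 hold none.

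Windows were found for 26 of the 32 members, and none for Fdps, Fdft1, Sqle, Abcg1, Npc1 and Stard4. Motifs were searched on both strands. CCAAT was present in 14 of 15 synthesis enzymes with a window (93.3%, all but Acat2), in 3 of 6 regulators (Srebf1, Srebf2 and Insig1) and in 3 of 5 efflux and transport genes (Mylip, Soat1 and Npc2), against 42.5% of compared genes with a window and 41.1% of all genes. TCACNCCAC was present in 1 member, Hmgcs1, and in 1.44% of all genes. The GC box GGGCGG was present in 14 of 15 synthesis enzymes (all but Pmvk) against 66.5% of compared genes. An LXR site written as AGGTCA repeated directly after a gap of 4 bases was present in 0 members and in 4 of 27025 genes. The box was also present in Sc5d, whose levels were higher in CD74+ than in ACE+ cells. A match describes letters in the window and is not a bound site. Motifs were searched only as written, with no mismatch allowed. The 0 matches for the LXR repeat therefore do not show that these genes lack an LXR site, and the same holds for the element core.

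**Figure D5:**
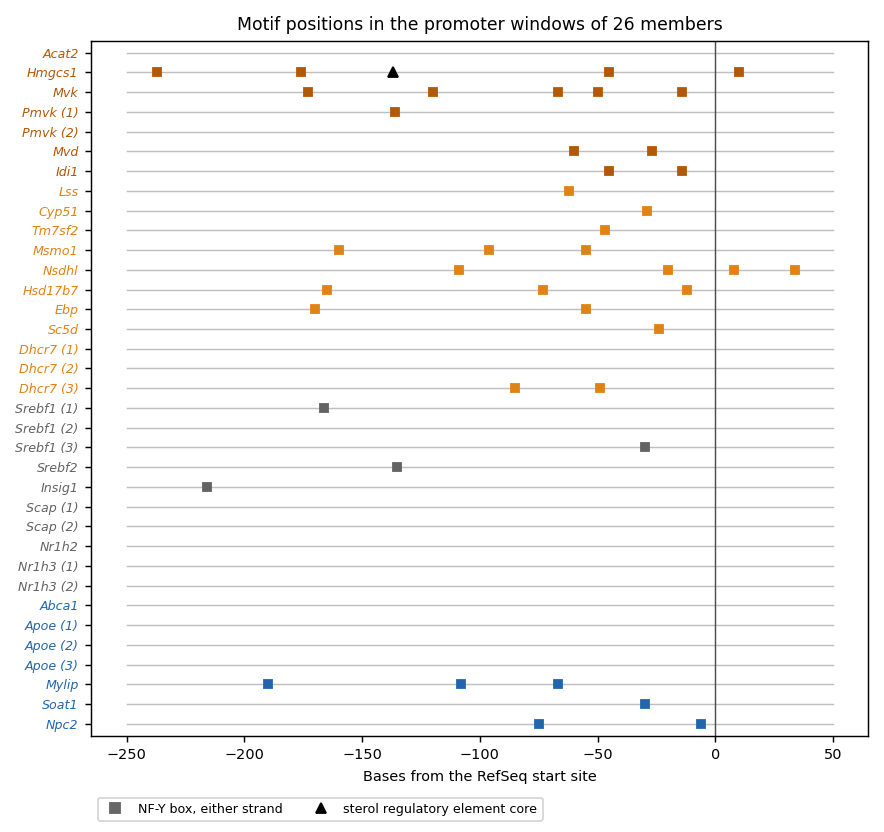
Positions of the NF-Y box (squares, either strand) and of the sterol regulatory element core (triangle) in the RefSeq promoter windows of 26 members, in bases from the start site; members with several windows have a line for each. The synthesis enzymes (orange and brown) all hold a box in at least 1 window except Acat2, and the only triangle is in Hmgcs1.

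Other genes of sterol handling and of SREBP-driven fatty acid synthesis, taken from lists of 31 and 12 genes, were set beside the members. In CD74+ cells with periostin, 22 of the 31 were lower, with a median log2 change of -0.24, and 11 of the 12 fatty acid genes were lower, with a median of -0.34, beside 48.6% of all compared genes lower and a median of 0.02. With the length trend removed, 20 of the 31 were lower, with a median of -0.11, and 9 of the 12, with a median of -0.30. Me1, which encodes an enzyme that supplies NADPH, had 17.0 CPM in CD74+ periostin and 39.6 in CD74+ vehicle, a ratio of 0.430 (0.364 to 0.506). Rxra, which encodes the partner receptor of LXR, had 20.99 CPM in CD74+ periostin and 43.2 in CD74+ vehicle, a ratio of 0.486 (0.417 to 0.563). Ch25h, the gene of the enzyme that makes 25-hydroxycholesterol, went the other way, with 6.55 CPM in CD74+ periostin and 0.658 in CD74+ vehicle, a ratio of 9.96 (5.25 to 20.8). In ACE+ cells the medians were 0.00 and 0.09, and none of the 43 genes was at least 2-fold higher or lower with periostin.

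Between the vehicle libraries, 6 of these 43 genes differed by at least 2-fold, 3 higher and 3 lower, against 3.64% of all compared genes higher and 7.73% lower, and they are named after their values were seen. Cd36, a scavenger receptor gene, had 814 CPM in CD74+ vehicle and 168 in ACE+ vehicle, Lrp1, a lipoprotein receptor gene, had 717 and 330 CPM, and Plin2, whose product coats lipid droplets, had 1155 and 543 CPM. Lower in CD74+ vehicle was Scd1, a fatty acid desaturase gene, with 8.55 CPM in CD74+ vehicle and 25.6 in ACE+ vehicle. So were Gramd1a, a sterol transfer gene, with 49.4 and 101 CPM, and Ch25h, with 0.658 and 2.45 CPM. Ch25h thus lay below 1 CPM in CD74+ vehicle. With periostin it had 6.55 CPM in CD74+ and 1.52 in ACE+ cells, the opposite order. Lrp1 then had 381 and 340 CPM, a smaller difference. Cd36, Plin2, Scd1 and Gramd1a kept their direction with periostin.

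The authors' deposited annotation terms cover only genes that they took as higher with periostin, so genes lower with periostin could not appear. The table for CX3CR1+ACE+ cells held 2 terms on sterols among 637. In the authors' deposited table these were cholesterol homeostasis, with 10 genes, an enrichment p-value of 0.0304 and a Benjamini value of 1, and reverse cholesterol transport, with 4 genes, a p-value of 0.0576 and a Benjamini value of 1. No member was among the genes listed in that table. The authors' deposited table for CX3CR1+CD74+ cells held 548 terms, 0 of them on sterols, and listed 3 members, Apoe, Mvk and Tm7sf2.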

How the data were processed

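RNA sequencing of 4 libraries was read from the tables that the authors deposited, 1 table for each subset. Alignment with HISAT2 to GRCm38 is stated per the submitters' processing notes. Tool versions, the counter, whether it used strand, and the gene annotation were not given in the sources used here, so a gene and an antisense partner cannot be told apart. The deposited values are a signal of scaled counts, reads divided by 1 factor per library over all 4 libraries; division by that step gave whole reads, within 0.001, for 100% of values in each library. The planned unit was CPM-type values or counts, and the deposited signal divided by the mean column total was used as CPM. The authors' deposited log2 fold changes were not used, and their enrichment p-value and adjusted p-value per term were only copied. A gene identifier and coordinates were taken from GENCODE M21. The number of unused per-sample columns was 0.

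Changes are log2 ratios after adding 1 CPM, which understates the change of low genes, for genes whose higher library reached 1 CPM. The median listed gene had between 210 and 332 reads. No listed value was 0, so genes with 0 reads in either library of a subset are missing from its table. The shares of all compared genes leave them out too. For such unlisted genes a count of 0 allows up to 3 reads, 0.147 to 0.269 CPM. With 1 library per group there is no test within a comparison; folds of 2 and 1.5 describe size. The common fits used edgeR 4.0.16 (R 4.3.3) on recovered reads with TMM factors, and p-values were adjusted by Benjamini-Hochberg over 13129 genes; DESeq2 1.42.0 was an alternative. Trends on length and GC content were removed with statsmodels 0.14.6, and exact intervals came from scipy 1.17.1. The fit was tested on simulated data. The members and lists were chosen with earlier results of these data known. Values in every library were given for members past 1.5-fold or called, and for the highest and lowest of each role and subset. Promoters were to be printed for members with the element core or, with fewer than 2 of these, for the 2 enzymes with the largest change in CD74+ cells; of those, Dhcr7 has a window.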

Additional observations from a re-analysis of the deposited data

Results flagged for a closer look

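For 5 members the ratio of periostin to vehicle lay on opposite sides of 1 in the 2 subsets, with both counting intervals clear of 1. Of all 32 members, 10 intervals lay above 1 and 14 below in CD74+ cells, and 13 above and 7 below in ACE+ cells. The matching count over all compared genes was not made, so the 5 are not read as particular to these members. With 1 library per group the difference between the subsets' responses was not tested across samples, and the intervals given cover counting error only. For Dhcr7 the log2 response in CD74+ cells minus that in ACE+ cells was -1.03 (-1.34 to -0.729), with ratios of 0.581 and 1.19. Srebf2 had a difference of -0.526 (-0.622 to -0.430), with ratios of 0.782 and 1.13. Pmvk had a difference of -0.476 (-0.791 to -0.161), with ratios of 0.805 and 1.12, and Lss one of -0.480 (-0.679 to -0.280), with ratios of 0.831 and 1.16. With the length trend removed the log2 change of Lss in CD74+ cells was 0.04, so that its opposite direction did not hold there. Idi1 was the reverse case, with a difference of 0.459 (0.224 to 0.694) and ratios of 1.20 in CD74+ cells and 0.873 in ACE+ cells.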

How the results depend on the processing

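Of 88 recomputed counts and medians, 82 stayed within 1.5 times for counts of members, or within counting error for medians. The 2 medians nearest 0 changed sign within that tolerance. That of the 18 synthesis enzymes in CD74+ cells with periostin ran from -0.113 with own-total scaling to 0.036 with the length trend removed. That of the 8 efflux and transport genes in ACE+ cells ran from -0.007 to 0.037. Between the vehicle libraries the medians stayed between -0.348 and -0.275 for synthesis enzymes and between 0.344 and 0.404 for efflux and transport genes. In CD74+ cells with periostin, 1 member was at least 2-fold away from vehicle with each library scaled to its own total reads, where 0 had been. The median log2 change of the 8 efflux and transport genes there was -0.505 with that scaling and -0.194 with the length trend removed, where it had been -0.412. The same median for CD74+ against ACE+ cells with periostin was 0.024 with own-total scaling and 0.288 with the length trend removed, where it had been 0.153, and that of the 18 synthesis enzymes stayed between -0.478 and -0.251. DESeq2's Wald test called 4 members between the subsets, against 7 in edgeR; the cause was not tested. Pseudocounts of 0.1 and 5 CPM and TMM factors moved no member's periostin change beyond its counting interval. Every member was above 5 CPM in the higher library of each comparison. The filters, none and a minimum of 5 CPM, therefore could not alter the members' changes, their counts at 2-fold or their medians. Those recomputations are among the 88 and were fixed in advance. Own-total scaling changed the sign of 2 of 64 member changes, removal of the GC trend 4 and of the length trend 5. The recomputed values of single members, of the subset medians with periostin and of the lists of 31 and 12 genes were chosen after seeing the data. On simulated data for the common periostin effect over 13129 genes, 88.2% of changes of log2 size 2 and 15.3% of log2 size 1 were called, and no member's periostin change in either subset reached log2 size 1. Leaving out a library could not be fitted, because each group has 1 and no residual degree of freedom would remain. No paired analysis was possible because each group holds a single library.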
